A study of Mus musculus with 9 samples.

Results

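The Runx factors Runx1, Runx2 and Runx3 and their shared partner Cbfb were examined in sorted mouse regulatory T (Treg) cells. The members were the rows Runx1, Runx2, Runx3 and Cbfb of the expression table, chosen by name, and all 4 were present among its 13698 genes. RNA-seq covered 9 libraries in 3 groups of 3, from spleen and lymph node of female mice on a C56Bl6/129 mix background. The deficient Treg cells were sorted as YFP+MHCII- from mice labelled LRFffThpokff Foxp3 Cre-YFP/X, in which the Cre recombinase made from one Foxp3 allele removes Thpok (gene Zbtb7b) and LRF (gene Zbtb7a) in the cells that use that allele. The genetic controls were sorted by the same gate from mice labelled WT Foxp3 Cre-YFP/X, which keep both factors and carry the same Cre allele. The animal controls were YFP-MHCII-CD25hi cells of the LRFffThpokff mice themselves, which use the unmodified Foxp3 allele and keep both factors. The sources used here give neither the ages of the mice nor whether a library holds cells of more than 1 animal, so p-values measure the spread between these libraries.

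Runx proteins bind DNA through the Runt domain, and each pairs with CBFbeta, the product of Cbfb, which does not bind DNA itself and strengthens the binding of its partner. In T cells Runx1 and Runx3 act at the Cd4 silencer, Runx3 is the main Runx factor of the CD8 lineage, and Thpok and the Runx factors oppose each other in the choice between the CD4 and CD8 lineages. In Treg cells Runx1 with CBFbeta binds to the Foxp3 gene and to the Foxp3 protein, and Runx2 is best known as the regulator of bone-forming cells.

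Each Runx gene has a distal and a proximal promoter, and the deposited value of a gene adds up the transcripts of both. Runx3 lies on chromosome 4 (135120652 to 135177990, plus strand), Runx1 on chromosome 16 (92601466 to 92826149, minus strand), Runx2 on chromosome 17 (44495987 to 44814797, minus strand) and Cbfb on chromosome 8 (105170674 to 105217989, plus strand), in GRCm38 by GENCODE M21. Some exons of Runx1 and Runx2 overlap antisense genes (Gm26626 and Runx2os1), and the sources used here do not say whether the counting used strand, so their values may hold antisense reads. No exon of another gene overlaps those of Runx3 or Cbfb. The first windows of the 3 Runx genes in RefSeq (GRCm38.p6, 250 bases before to 50 after an annotated start) share a run of 18 bases, shown here because it is a sequence feature common to the family that holds 2 copies of the Runx motif. The run is in capitals, read in the direction of each gene.

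Runx1 distal start, chr16:92826025-92826054, minus strand: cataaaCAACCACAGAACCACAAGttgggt

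Runx2 distal start, chr17:44814583-44814612, minus strand: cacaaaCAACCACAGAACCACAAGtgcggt

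Runx3 distal start, chr4:135120503-135120532, plus strand: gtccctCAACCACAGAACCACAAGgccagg

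With the annotated start as base 1, the run begins at base 27 in Runx1 and at base 22 in Runx2, while in Runx3 it begins 136 bases before the start. On either strand it is found in 4 of 32851 windows (0.0122%), those 3 and the window of Gm16225, which faces the other way on chromosome 4 and overlaps the Runx3 window. The motif was searched as TGTGGT or TGCGGT on both strands (ACCACA or ACCGCA), and 22.4% of all windows hold at least 1 copy. The 250 bases before both Runx3 starts are shown because Runx3 is the member whose level differed between groups, with each motif copy in capitals.

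Runx3 distal, chr4:135120395-135120644, plus strand: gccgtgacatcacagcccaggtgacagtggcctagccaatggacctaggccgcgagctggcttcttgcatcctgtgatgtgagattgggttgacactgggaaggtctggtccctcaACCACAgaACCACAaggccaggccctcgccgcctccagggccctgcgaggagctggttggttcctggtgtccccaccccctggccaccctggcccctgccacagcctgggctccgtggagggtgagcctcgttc

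Runx3 proximal, chr4:135152295-135152544, plus strand: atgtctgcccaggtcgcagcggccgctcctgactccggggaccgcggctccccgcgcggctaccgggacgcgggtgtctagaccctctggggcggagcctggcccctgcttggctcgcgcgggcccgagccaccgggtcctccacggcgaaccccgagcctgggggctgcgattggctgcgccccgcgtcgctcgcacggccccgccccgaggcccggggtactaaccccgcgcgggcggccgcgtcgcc

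The distal stretch holds 2 copies and the proximal one 0. The window of Cbfb also holds 0. A match is a string of letters and was not read as a binding site, and the expression values do not tell the 2 Runx3 starts apart.

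Levels are given in CPM (read counts scaled to a common library total, taken from the deposited log2 values, which had been made equal in distribution across libraries) and changes as log2 fold change ± SE from limma, with Benjamini-Hochberg adjustment over all 13698 genes and n = 3 against 3. A change was called at an FDR under 0.05. Read depth cannot be recovered from these values, so no counting error is given. The deletion was checked first. Zbtb7b was nearly absent from the deficient cells at 0.260 ± 0.110 CPM, against 115 ± 30.3 CPM for genetic controls and 93.7 ± 15.0 CPM for animal controls (SD, n = 3 each). Zbtb7a averaged 89.5 ± 12.6 CPM in deficient cells, 90.3 ± 21.0 CPM for genetic controls and 112 ± 19.3 CPM for animal controls, and its value per gene does not test a deletion of part of it. Foxp3, which defines Treg cells, was at 26.5 to 35.9 CPM in the deficient cells and 24.8 to 38.1 CPM in the genetic controls, against 754 to 999.7 CPM in the animal controls. The other Treg markers Il2ra, Ctla4, Ikzf2 and Tnfrsf18 and the T cell marker Cd3e were measured in every group. Genetic control 8619 stood apart, with 363 summed CPM of the 9 measured myeloid and dendritic cell markers against 14.2 to 91.3 CPM in the other YFP+ libraries and 6.98 to 14.5 CPM in the animal controls.

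Runx3 was the member that changed. It measured 101, 90.3 and 97.1 CPM in the deficient cells of mice 142114, 232614 and 432614, against 17.9, 19.7 and 34.9 CPM in genetic controls 124, 8619 and 8800. Every deficient library lay above each genetic control, a pattern held by 8.44% of all genes, and the deficient libraries were close to each other. Runx3 rose by 2.05 ± 0.33 on the log2 scale (fold 4.15, 95% interval 2.48 to 6.96, adjusted p = 0.0240 by limma). It was the 1 called member of 4, in a comparison in which 0.869% of all genes were called, 10.6% had an unadjusted p under 0.05 and 15.7% had groups that did not overlap in either direction. The call was near the threshold: its adjusted p ran from 0.0147 to 0.0866 over 16 alternative fits, and 8 of these lost the call while the log2 fold change stayed between 1.87 and 2.35. Without genetic control 124 the value was 1.87 (adjusted p = 0.0696 by limma) and without genetic control 8619, the library with more myeloid RNA, it was 1.94 (adjusted p = 0.0866). Without 1 deficient library it was between 2.02 and 2.10, with adjusted p = 0.0823, 0.0729 and 0.0820 for 142114, 232614 and 432614, and without animal control 432614 the adjusted p was 0.0506.

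The animal controls of mice 142114, 232614 and 432614 had 91.7, 53.9 and 66.1 CPM of Runx3, so the deficient cells of the same mice were higher in each of the 3 pairs, by 0.14, 0.74 and 0.56 on the log2 scale. The groups overlapped, because animal control 142114 lay above deficient library 232614. The difference of 0.48 ± 0.33 did not pass the test (adjusted p = 0.647, fold 1.39 with a 95% interval of 0.832 to 2.34), nor did it with the mouse as a fixed term (adjusted p = 0.523). In this comparison limma called 0 of 4 members and 0.891% of all genes, and 1 member, Runx1, had an unadjusted p under 0.05. The interval reaches down to a slight fall and up to a rise of over 2-fold, so it does not show equal levels.

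The genetic and animal controls both keep Thpok and LRF, yet Runx3 was lower in the genetic controls, with means of 24.2 ± 9.33 CPM in genetic controls and 70.6 ± 19.3 CPM in animal controls (SD, n = 3 each). No library of one group reached the other, with the genetic controls lower, as was so for 5.57% of all genes. The log2 difference was -1.57 ± 0.33 with an unadjusted p of 0.000865, and it did not pass the correction (adjusted p = 0.232 by limma). In this comparison limma called 0 of 4 members and 0.0365% of all genes, and 6.62% of all genes had an unadjusted p under 0.05. The order of the Runx3 levels was thus deficient cells, animal controls, genetic controls. The highest 2 groups overlapped and the lowest stood alone. The genetic controls differ from the animal controls in the mice, the Foxp3 allele used and the sorting gate, and these cannot be told apart. Runx3 lay between the 81.5 and 83.6 percentile of all genes in the deficient libraries, between 49.8 and 61.5 in the genetic controls and between 70.6 and 81.8 in the animal controls.

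**Figure D1:**
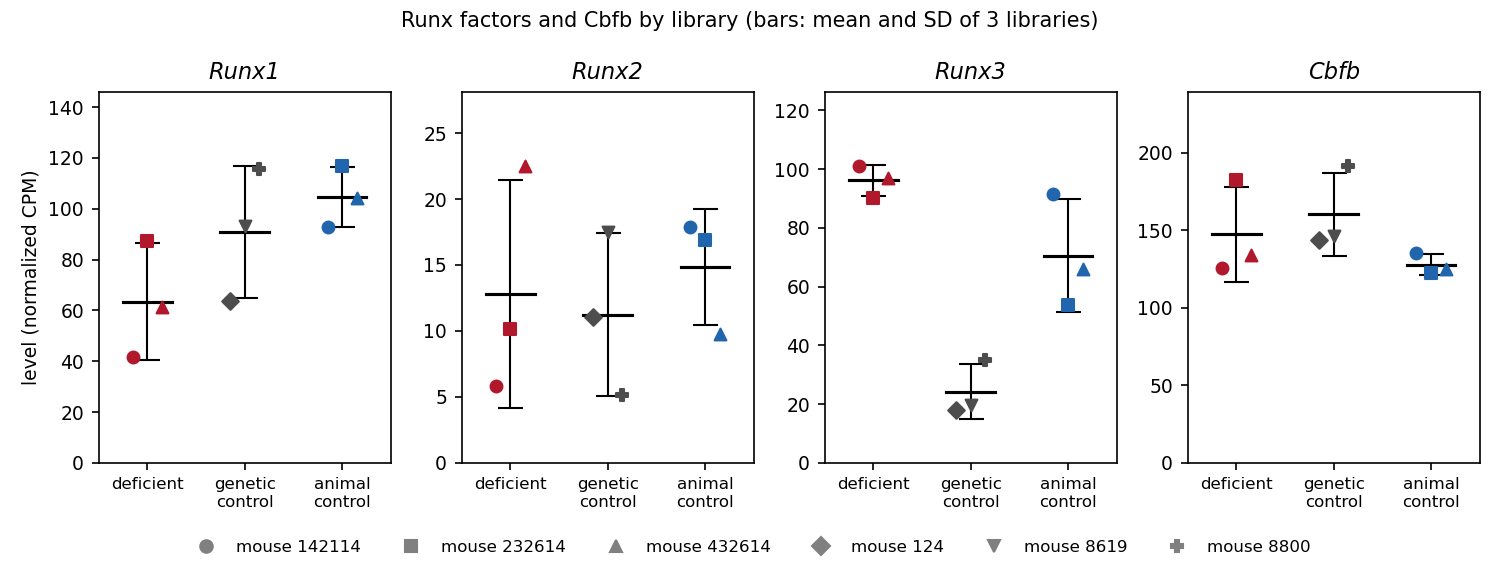
Levels of the 4 members in normalized CPM on linear axes that start at 0, with 1 point per library, a shape per mouse, and black bars for the mean and SD of 3 libraries. Runx3 was at 90.3 to 101 CPM in deficient cells, 17.9 to 34.9 CPM in genetic controls and 53.9 to 91.7 CPM in animal controls, while the groups of Runx2 overlapped in each comparison.

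Runx3 is also made in CD8 T, NK, gamma-delta and innate lymphoid cells, so their marker levels are set beside it. Of the CD8 T cell markers 8 of 9 were measured, with sums of 667 to 730 CPM in deficient cells, 92.7 to 208 CPM in genetic controls and 118 to 158 CPM in animal controls. Without Cd8a and Cd8b1, which were set apart after their values were seen, the other 6 summed to 75.9 to 137 CPM in deficient cells, 42.1 to 123 CPM in genetic controls and 53.2 to 55.7 CPM in animal controls. The overlap between deficient cells and genetic controls rested on genetic control 8619, whose sum of 123 CPM held 81.1 CPM of Ccl5, a chemokine, while the other 2 genetic controls were at 72.3 and 42.1 CPM, below every deficient library. Prf1, the perforin gene, measured 50.3, 84.2 and 109 CPM in deficient cells, against 38.0, 23.4 and 11.6 CPM in genetic controls and 15.9, 21.8 and 19.6 CPM in animal controls. Deficient cells overlapped neither control in Prf1, which was singled out from its list after its values were seen. Against the genetic controls 8.44% of all genes were higher without overlap, and against the animal controls 15.9% had no overlap in either direction. Klrd1, a killer cell receptor gene, was at the lowest value of the table in all 3 deficient libraries. Of the NK cell markers 5 of 11 were measured, with sums of 10.3 to 21.0 CPM in deficient cells, 5.80 to 51.0 CPM in genetic controls and 5.29 to 14.8 CPM in animal controls. Klrb1c, the NK1.1 antigen gene, was at the lowest value in 2 deficient libraries, 1 genetic control and 1 animal control. Gzma, a granzyme gene, was at 0.0248, 5.35 and 11.1 CPM in deficient cells and at 7.68 CPM in genetic control 8619, with the lowest value in the other 2 genetic controls, and it lay between the lowest value and 2.97 CPM in animal controls. Tyrobp, an adaptor of NK and myeloid cells, was above the lowest value in all deficient libraries, at 1.34 to 4.59 CPM. The gamma-delta T cell markers, 5 of 7 measured, summed to 7.80 to 14.2 CPM in deficient cells and 8.91 to 16.8 CPM in genetic controls, against 23.8 to 37.2 CPM in animal controls. The gamma-delta sums did not overlap between the 2 controls, and the sums of deficient cells overlapped those of the genetic controls. Between the controls 10.4% of all genes, taken singly, had no overlap, a share that does not apply directly to a sum of 5 genes. Trdv4 was at the lowest value in all 3 deficient libraries, all 3 genetic controls and 1 animal control. Tcrg-C1, a constant region of the gamma chain, was at 0.0362, 9.11 and 14.1 CPM in deficient cells, 4.33, 5.002 and 0.835 CPM in genetic controls and 9.60, 13.2 and 11.4 CPM in animal controls. B cell markers, 14 of 17 measured, also had no overlap between the controls, at 850.2 to 1329 CPM in genetic controls and 1557 to 2125 CPM in animal controls, with 733 to 1134 CPM in deficient cells. The innate lymphoid list, 8 of 9 measured, ran from 411 to 511 CPM in deficient cells and from 582 to 810.4 CPM in genetic controls, with 802 to 1066 CPM in animal controls. The part of these cells in the Runx3 levels was not tested, and in bulk RNA fewer cells with a transcript and less of it per cell cannot be told apart.

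Runx1 was lower on average in the deficient cells and passed no test after correction. It measured 41.6, 87.4 and 61.1 CPM in the deficient cells of mice 142114, 232614 and 432614. Genetic controls 124, 8619 and 8800 had 63.8, 93.3 and 116 CPM, and the animal controls of the 3 mice had 92.9, 117 and 104 CPM. The deficient libraries overlapped the genetic controls and lay below all animal controls. Against the genetic controls the log2 difference was -0.54 ± 0.32 (adjusted p = 0.600 by limma), with a 95% interval on the fold of 0.416 to 1.13. Against the animal controls it was -0.78 ± 0.32, with an unadjusted p of 0.0365 and an adjusted p of 0.381 by limma. Runx1 was the 1 member of 4 without overlap in that comparison, where 15.9% of all genes had no overlap in either direction, 8.10% had all deficient libraries below the animal controls and 11.9% had an unadjusted p under 0.05. Within mice the deficient cells were lower in 3 of 3 pairs, with log2 differences of -1.16, -0.42 and -0.77 on the log2 scale. The fit with the mouse as a fixed term gave an unadjusted p of 0.0285 and an adjusted p of 0.449. Between genetic and animal controls the log2 difference was -0.24 ± 0.32 (adjusted p = 0.959 by limma).

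Cbfb, whose product serves all 3 Runx proteins, passed no test. It measured 126, 182 and 134 CPM in the deficient cells of mice 142114, 232614 and 432614. The values were 143, 146 and 191 CPM in genetic controls 124, 8619 and 8800, and 136, 123 and 125 CPM in the animal controls. Both deficient comparisons had overlapping groups, and the genetic controls all lay above the animal controls. The log2 difference of deficient cells was -0.13 ± 0.20 against the genetic controls (adjusted p = 0.886 by limma) and 0.19 ± 0.20 against the animal controls (adjusted p = 0.792). The 95% intervals on the fold were 0.668 to 1.25 and 0.832 to 1.56, which hold both modest falls and modest rises. Between the controls the difference was 0.32 ± 0.20 (adjusted p = 0.832), in a comparison where 10.4% of all genes had no overlap in either direction and 4.88% were higher without overlap. The 2 members without overlap there were Runx3 and Cbfb.

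Runx2 was the lowest member and the most uneven. It measured 5.84, 10.1 and 22.5 CPM in deficient cells of mice 142114, 232614 and 432614. Genetic controls 124, 8619 and 8800 had 11.1, 17.5 and 5.14 CPM, and the animal controls had 17.9, 16.9 and 9.79 CPM. All groups overlapped and no direction was shared by the 3 mice, with log2 differences within mice of -1.61, -0.74 and 1.20. The difference was 0.14 ± 0.70 against the genetic controls (adjusted p = 0.986 by limma) and -0.38 ± 0.70 against the animal controls (adjusted p = 0.903). The 95% interval of the first, 0.373 to 3.26 on the fold, leaves room for a change of over 2-fold either way.

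**Figure D2:**
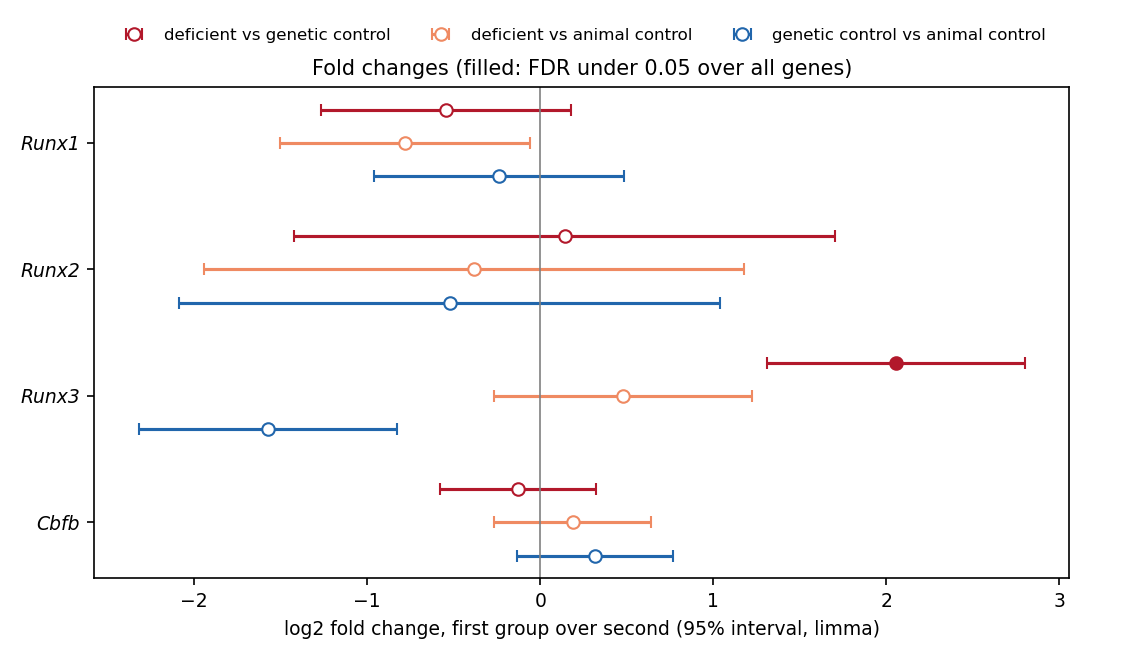
Log2 fold changes of the 4 members (first group over second) in the 3 comparisons, with 95% intervals from limma; filled points passed an FDR under 0.05 over all genes. Runx3 in deficient cells against genetic controls (2.05) is the filled point, and its interval for genetic against animal controls (-2.32 to -0.83) also lies away from 0.

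The balance of Runx3 and Runx1 was read within each library as log2 Runx3 minus log2 Runx1. When libraries are compared, this difference of log2 values does not depend on gene length. It was 1.28, 0.05 and 0.67 in the deficient cells of mice 142114, 232614 and 432614. In the animal controls of the same mice it was -0.02, -1.12 and -0.65, and in genetic controls 124, 8619 and 8800 it was -1.83, -2.24 and -1.73. The 3 groups did not overlap: the deficient libraries were highest and the genetic controls lowest. The gap between deficient cells and animal controls was narrow, from 0.05 in deficient library 232614 to -0.02 in animal control 142114. It was small beside the SD of 0.62 and 0.55 within those groups. The point 0 marks equal CPM and not equal transcript levels, since it depends on gene length. Per kilobase of joined exons Runx3 exceeded Runx1 in every animal control, at 18.3 against 7.73, 10.8 against 9.71 and 13.2 against 8.65 CPM per kilobase. Per kilobase of the longest coding transcript Runx3 was the lower one in animal controls 232614 (13.9 against 19.9) and 432614 (17.0 against 17.8). The 3 mice kept the same order in both of their cell groups, with 142114 highest and 232614 lowest. This is a description of 2 members chosen with results known, and no test was made of it.

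**Figure D3:**
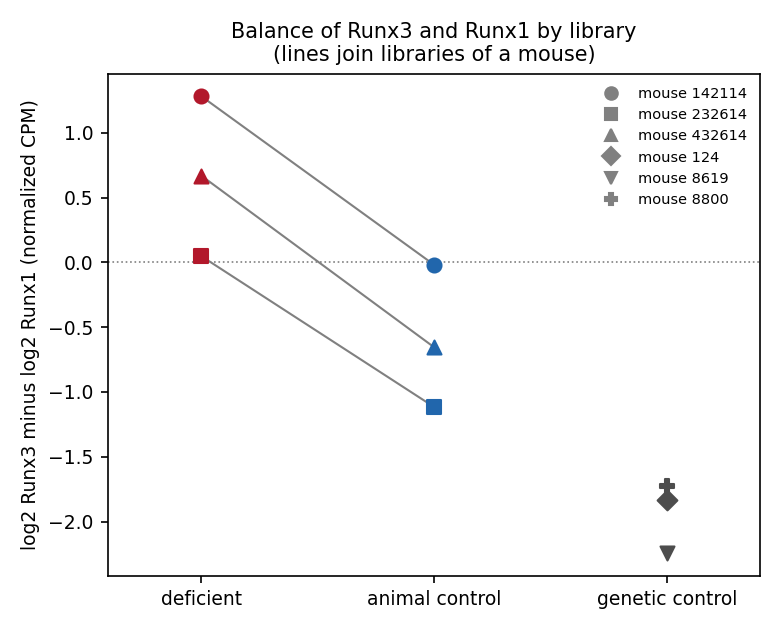
Log2 Runx3 minus log2 Runx1 (normalized CPM) for each of 9 libraries, with a shape per mouse and grey lines joining the deficient cells and animal controls of a mouse. The deficient libraries span 0.05 to 1.28, the animal controls -1.12 to -0.02 and the genetic controls -2.24 to -1.73.

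Levels of different genes were compared per kilobase of exon, using the joined exons of each gene in GENCODE M21. On that scale Runx3 averaged 19.2 ± 1.09 and Runx1 5.27 ± 1.91 CPM per kilobase in the deficient cells (SD, n = 3). The genetic controls had the opposite order, with 4.84 ± 1.87 CPM per kilobase of Runx3 and 7.56 ± 2.16 of Runx1. The animal controls had 14.1 ± 3.86 CPM per kilobase of Runx3 and 8.70 ± 0.992 of Runx1. The lengths matter: with the longest coding transcript in place of the joined exons, Runx3 and Runx1 were at 18.2 ± 4.97 and 17.8 ± 2.03 CPM per kilobase in the animal controls, within their spread, and at 24.8 ± 1.40 and 10.8 ± 3.92 in the deficient cells. Cbfb was the highest member per kilobase of joined exons, at 42.3 ± 8.82 in deficient cells, 46.1 ± 7.72 in genetic controls and 36.7 ± 1.98 in animal controls, and Runx2 the lowest, at 1.45 ± 0.978, 1.27 ± 0.699 and 1.68 ± 0.499 CPM per kilobase in those groups.

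The genes most like Runx3 over the 9 libraries, by Pearson correlation of log2 values among the other 7549 genes that averaged 10 CPM or more, were Atp5j (r = 0.94), a subunit of the mitochondrial ATP synthase, Eif5a (0.94), a translation factor, Sept1 (0.94), a septin, Wdr74 (0.91), a ribosome assembly factor, and Snrpg (0.91), a spliceosome protein. Of these Wdr74 shared the size of the difference, with 77.1 ± 3.13 CPM in deficient cells, 17.8 ± 9.20 CPM in genetic controls and 65.4 ± 8.002 CPM in animal controls. It was called against the genetic controls (2.28 ± 0.42, adjusted p = 0.0420 by limma). Since Wdr74 was picked for its likeness to Runx3 in these same libraries, that call is not separate evidence. Atp5j moved far less, at 236 ± 9.77, 198 ± 5.16 and 233 ± 9.18 CPM in the 3 groups in that order. For Runx1 the closest genes were Lrrc24, Rnft1, Cd74, AI467606 and Smap1 (r between 0.92 and 0.94), and Cd74, the invariant chain of MHC class II and a marker on the B cell list, had 88.2 ± 62.2 CPM in deficient cells, 144 ± 56.5 CPM in genetic controls and 249 ± 20.0 CPM in animal controls. For Cbfb they were Chpf, Iba57, Ggps1, 4632427E13Rik and Dock11 (0.87 to 0.91), and for Runx2 Dhx34, Lysmd2, Zfp866, Acaa1a and Derl2 (0.87 to 0.96). The points share the 3 groups and a common normalization, and the order is loose: 2 of the 5 genes were kept for Runx3 and 0 for Runx1 and Cbfb when Spearman correlation was used.

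Genes around the Runx factors were followed in 7 lists with 111 distinct measured genes, of which 5 rose and 5 fell in deficient cells against the genetic controls (limma), with a median log2 fold change of 0.06 beside 0.04 over all genes. In that comparison 0.336% of all genes rose and 0.533% fell. Against the animal controls 4 rose and 7 fell, with 0.307% and 0.584% of all genes. With the mouse as a fixed term, which leaves few degrees of freedom, limma called 0 list genes and 0 of all genes, with 1395 genes at an unadjusted p under 0.05, while with the mouse as a random term it called 148 of all genes. Between genetic and animal controls 0 list genes rose and 1, Foxp3, fell.

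Genes that Runx3 or Cbfb-dependent Runx factors are known to promote in CD8 and cytotoxic T cells held most of the rises among the lists. Cd8a and Cd8b1 belong both to this list and to the CD8 T cell markers, and the part of CD8 T cells in the list's values was not tested. Against the genetic controls 5 of 18 measured members rose and 0 fell by the FDR threshold, with a median log2 fold change of 1.15. Against the animal controls 3 rose and 0 fell, with a median of 0.52. Some members that were not called were lower in deficient cells, among them Itga4 and Tbx21. Itga4, an integrin chain, had 111 ± 19.9 CPM in deficient cells, 229 ± 54.0 CPM in genetic controls and 170 ± 9.52 CPM in animal controls. Its adjusted p was 0.0715 and 0.283 by limma. Tbx21, at low levels, averaged 0.0235, 3.01 and 6.74 CPM in those groups. Cd8a, a chain of the CD8 co-receptor, had 367 ± 19.9 CPM in deficient cells, 21.9 ± 7.56 CPM in genetic controls and 34.5 ± 16.1 CPM in animal controls (log2 fold changes 4.14 ± 0.40 and 3.53 ± 0.40, adjusted p = 0.00188 and 0.00345 by limma). Cd8b1, the partner chain, rose against the genetic controls (2.98 ± 0.53, adjusted p = 0.0370), with 222 ± 23.8 CPM in deficient cells and 32.8 ± 22.3 CPM in genetic controls. Of the 9 fits without 1 library that call was kept in 2, those without genetic control 8619 or animal control 232614, with adjusted p up to 0.132, and it did not pass against the animal controls (adjusted p = 0.0880). Nkg7, a cytotoxic granule protein, measured 242 ± 12.1, 70.5 ± 32.6 and 70.4 ± 10.1 CPM in deficient cells, genetic controls and animal controls and rose against both (log2 fold changes 1.87 ± 0.30 and 1.79 ± 0.30, adjusted p = 0.0237 and 0.0245). The calls were kept in 4 and 3 of the 9 fits without 1 library, with adjusted p up to 0.0977 and 0.0970, and were lost in both comparisons without any single deficient library. Ccr9, a gut-homing chemokine receptor, measured 415 ± 73.1, 23.6 ± 17.8 and 44.3 ± 26.4 CPM and also rose against both (log2 fold changes 4.43 ± 0.59 and 3.39 ± 0.59, adjusted p = 0.00977 and 0.0290). Its call against the animal controls was kept in 3 of the 9 fits without 1 library, those without genetic control 124 or 8800 or animal control 142114, with adjusted p up to 0.102.

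Xcl1, a chemokine of activated CD8 T and NK cells, was, like Runx3, lowest in the genetic controls, but at low levels. It was at 6.20, 2.85 and 1.18 CPM in deficient cells, at the lowest value of the table in all 3 genetic controls, and at 2.69, 5.02 and 4.02 CPM in animal controls. It was called against the genetic controls (adjusted p = 0.0234 by limma). The call was kept in 3 of the 9 fits without 1 library, those without genetic control 124 or animal control 142114 or 232614, with adjusted p up to 0.0886, and no fold is given because one group is at the lowest value. Of the genes of this list in the promoter table, 8 of 12 (66.7%) held the Runx motif in a window, as did 24.9% of the 8988 measured genes in that table. This was the highest share among the 7 lists. The others ran from 0 of 13 DNA-binding partners to 6 of 14 modifiers and kinases (42.9%), with 28.6% of the Runx-repressed genes. The lists were chosen with earlier results known, and the shares were not tested. Cd8a, Nkg7 and Xcl1 held the motif, Ccr9 did not, and Cd8b1 had no window.

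Genes that Runx factors are known to repress held 2 called members in both comparisons, both lower in deficient cells. These were the deleted Zbtb7b, whose silencer Runx factors bind, and Cd4, which fell to 355 ± 25.7 CPM in deficient cells, against 866 ± 175 CPM in genetic controls and 889 ± 87.7 CPM in animal controls (log2 fold changes -1.27 ± 0.15 and -1.32 ± 0.15, adjusted p = 0.00488 and 0.00338 by limma). The other 10 of 12 measured members, among them Tcf7, a factor of resting T cells (-0.52, adjusted p = 0.131 against the genetic controls), did not pass. The list had a median log2 fold change of -0.24 against the genetic controls and -0.29 against the animal controls.

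Genes tied to Runx1 and Cbfb together with Foxp3 in Treg cells were lower where they were called. Of 13 measured members 0 rose and 3 fell against the genetic controls, with a median log2 fold change of -0.31, and 0 rose and 5 fell against the animal controls, with a median of -0.71. Those 5 include Foxp3, which was as low in the genetic controls, and Il2ra, on whose product the animal controls were gated. The median of -0.71 is the value of Il2ra itself. Nrp1, a semaphorin co-receptor of thymus-derived Treg cells, had 78.4 ± 27.9 CPM in deficient cells, 398 ± 26.7 CPM in genetic controls and 744 ± 157 CPM in animal controls (adjusted p = 0.00428 and 0.000688 by limma). Nt5e, the CD73 ectoenzyme, had 117 ± 12.1, 347 ± 56.0 and 429 ± 49.4 CPM in that order (adjusted p = 0.00323 and 0.000925). Folr4, a folate receptor family member on Treg cells, fell against both as well (-0.71 ± 0.13 and -0.86 ± 0.13, adjusted p = 0.0414 and 0.0137). Against the genetic controls its call was kept in 2 of the 9 fits without 1 library, those without animal control 142114 or 432614, with adjusted p up to 0.158, and against the animal controls it was lost without deficient library 232614 (adjusted p = 0.0584). Il2ra, the CD25 gene behind the gate of the animal controls, fell against the animal controls at the edge of the threshold (-0.71 ± 0.14, adjusted p = 0.0497). That call was kept in 3 of the 9 fits without 1 library, those without genetic control 124 or 8619 or deficient library 142114, with adjusted p up to 0.14. Foxp3 also fell against the animal controls (-4.81 ± 0.25, adjusted p = 5.18e-05), and the genetic controls, which keep both factors, were as low (-4.78 ± 0.25, adjusted p = 5.55e-05 against the animal controls).

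Cofactors and modifiers of the Runx proteins held 1 called gene. Over all genes limma called 0.869% against the genetic and 0.891% against the animal controls, and 10.6% and 11.9% had an unadjusted p under 0.05. At such shares a count of 0 called in a list of this size does not set the list apart from other genes. Of 23 measured co-repressors and co-activators 0 rose and 0 fell against the genetic controls (limma, lowest adjusted p 0.246), with 6 at an unadjusted p under 0.05 and a median log2 fold change of 0.31. Against the animal controls 1 rose, Dnmt3a, a DNA methyltransferase, with 217 ± 11.8 CPM in deficient cells, 147 ± 41.0 CPM in genetic controls and 97.6 ± 8.69 CPM in animal controls (1.16 ± 0.21, adjusted p = 0.0380 by limma). Its call was kept in 2 of the 9 fits without 1 library, those without genetic control 8619 or 8800, with adjusted p up to 0.114. Kat6a, a histone acetyltransferase that works with Runx1, had 150.4 ± 34.4, 84.0 ± 13.7 and 85.7 ± 16.8 CPM in deficient cells, genetic controls and animal controls and passed neither test (adjusted p = 0.246 and 0.240). Of 17 measured modifiers and kinases limma called 0 in deficient cells against either control, with 0 at an unadjusted p under 0.05 against the genetic and 3 against the animal controls. Among 19 measured DNA-binding partners limma called 0 against the genetic controls, with 5 at an unadjusted p under 0.05, and Foxp3 was the 1 called against the animal controls. Tbx21, the T-bet factor that works with Runx3, was at the lowest value in 2 of 3 deficient libraries and passed neither test (adjusted p = 0.139 and 0.0557). Of the 22 regulators of the CD4 and CD8 lineages the deleted Zbtb7b was the 1 called member in both comparisons.

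**Figure D4:**
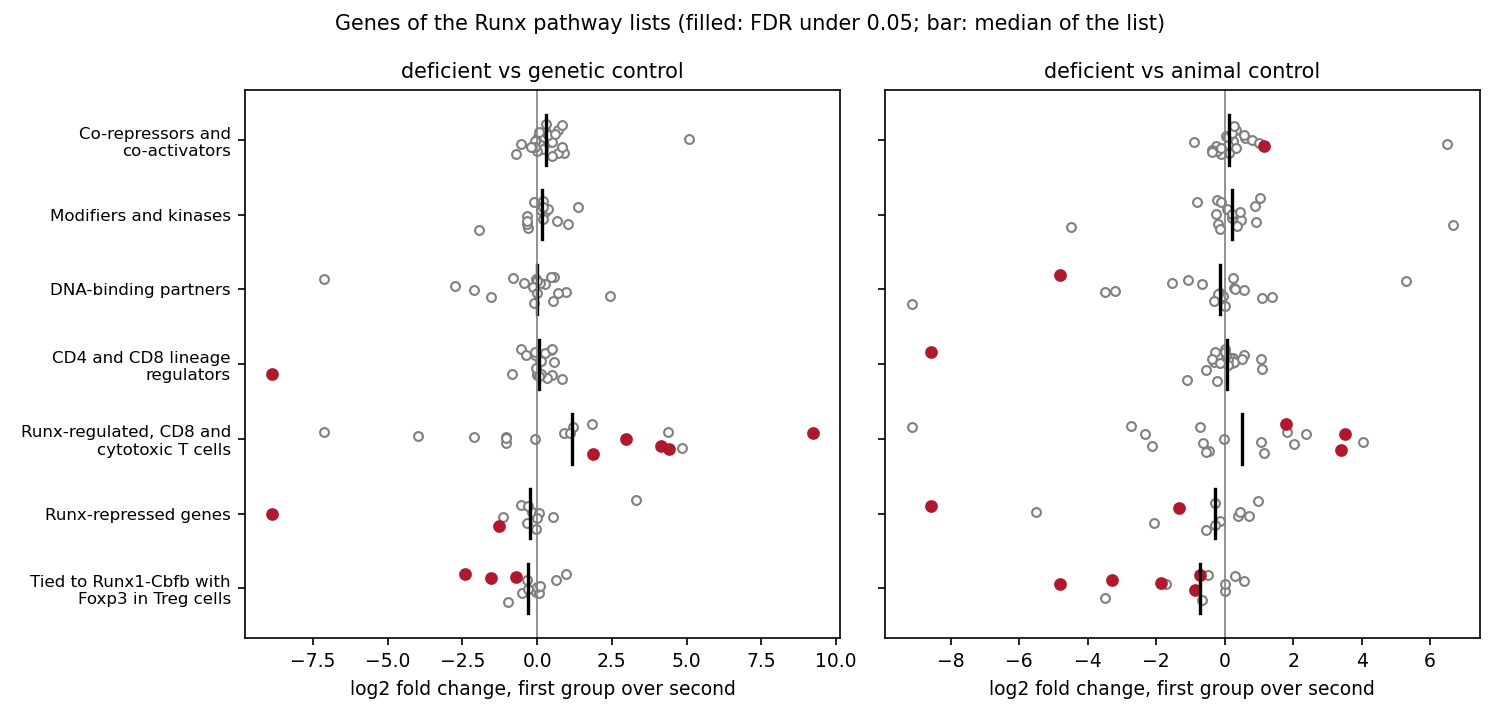
Log2 fold changes of the measured genes of 7 Runx lists, 1 point per gene, for deficient cells against genetic controls and against animal controls; filled points passed an FDR under 0.05 and black bars are list medians. Among the points farthest from 0, the deleted Zbtb7b (-8.85 and -8.58) was above the lowest value of the table, at 0.147 to 0.366 CPM in deficient cells. Others, such as Xcl1 (9.23 against the genetic controls) and Tbx21 (-7.13 and -9.13), were at the lowest value in some libraries. The size of such points depends on that value. The list of CD8 and cytotoxic genes holds 5 filled points on the right against the genetic controls and 3 against the animal controls.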

How the data were processed

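RNA was amplified with a SMARTer kit and tagged with Nextera XT, per the labels' protocols. The submitters' processing notes name bcl2fastq 1.8.4, STAR 2.4.0h, mm10 and limma, without their order or roles. The sources used here do not give the counting tool, annotation or filter. The table deposited by the authors holds log2 values. Their linear sums are nearly equal (999252 to 999256 over the genes kept) and the lowest (-7.77) and highest (13.42) values are shared by all 9 libraries, which is how log2 CPM look after quantile normalization by the authors. Depth is unknown, since the totals are not recoverable. A library had 8% to 11.4% of genes at the lowest value.

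Of 13702 rows 4 exact duplicates were dropped. No pseudocount or filter was applied. A limma-trend model of 3 group means over all 9 libraries (limma 3.58.1, R 4.3.3) gave 3 two-sided contrasts, adjusted over 13698 genes at an FDR of 0.05. The fit was tested on simulated data. Exact permutation of 3 against 3 libraries reaches no p below 0.1 and was not used. Intervals are at the 95% level. The members and lists were chosen with earlier results of these data known. The named genes were the members, the 5 genes most correlated with each, the called members of each list (or else up to 2 with the lowest adjusted p), and Zbtb7b, Zbtb7a, Foxp3, Cd4 and Cd8a as checks. Marker genes given singly were chosen after their values were seen. Alternatives were limma without the trend, log2(CPM + 1), filters at a mean of 1 and 10 CPM, median centring, the 6 libraries compared alone, leaving out each library, and the mouse as a random or fixed term. Deficient cells and animal controls came from the same 3 mice, per the labels, which pairs them. After removal of group means, libraries of the same mouse correlated at 0.0483, 0.0202 and 0.0170 over 7550 genes, against -0.0304 to 0.0080 for different mice. Symbols were matched to GENCODE M21 and to RefSeq promoter windows (Python 3.11.15, pandas 2.3.3, matplotlib 3.10.9).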

Additional observations from a re-analysis of the deposited data

How the results depend on the processing

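The log2 fold change of Runx3 against the genetic controls kept its sign in all 16 alternatives and its call in 8. The value was 2.05 without the trend (adjusted p = 0.0679) and with only the 6 libraries compared (adjusted p = 0.0838), and 1.87 to 2.35 over the 9 fits without 1 library. Among the fits without 1 library, the call was kept without genetic control 8800 (adjusted p = 0.0273 by limma) or animal control 142114 (0.0379) or 232614 (0.0378). It was lost in the other fits without 1 library. The cause of the losses was not tested. No other member passed in any alternative. Signs turned without 1 library for Runx2 against the genetic controls (-0.37 to 0.60; -0.34 without genetic control 8800 and -0.37 without deficient library 432614), Runx2 against the animal controls (-0.90 to 0.0736, the last without deficient library 142114) and Cbfb against the genetic controls (-0.29 to 0.0048, the last without genetic control 8800). The mouse as a random term (replicate block) changed no call of a member. The mouse as a fixed term was fitted only against the animal controls, where the main fit had called 0 members. That fit moved the genes called and the list genes called to 0 and 0 (smallest adjusted p 0.0953 by limma). It therefore does not bear on the call of Runx3 against the genetic controls. Against the genetic controls 119 genes and 10 list genes were called, or 22 and 4 with only the 6 libraries, 48 to 93 and 6 to 10 without 1 library, and 5 list genes without the trend. Against the animal controls 122 genes and 11 list genes were called, or 52 genes with only the 6 libraries, 58 to 115 and 6 to 11 without 1 library, and 5 list genes without the trend. Between the controls 5 genes and 1 list gene were called, or 3 genes with only the 6 libraries, 4 to 10 without 1 library, and 32 genes and 2 list genes without the trend. Of the 5 genes most like each member, Spearman correlation kept 2 for Runx3, 2 for Runx2, 0 for Runx1 and 0 for Cbfb, and a filter at 1 CPM kept 3 for Runx3, 3 for Runx1 and 3 for Runx2; the settings for Runx2 were chosen after seeing the data. Since depth is unknown, the precision of low members such as Runx2 cannot be stated beyond the spread between libraries.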
